A study of Mus musculus with 16 samples.

Results

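Cytochrome P450 enzymes are encoded by the Cyp genes, and Por encodes the NADPH-dependent reductase that passes electrons to the P450s of the endoplasmic reticulum. These genes were examined in eCLIP libraries of endogenous PGC-1α from mouse hepatocytes. The set held Por and every protein-coding gene of the GENCODE M21 annotation whose symbol starts with Cyp and a digit, and that had at least 1 cluster in any of the 8 immunoprecipitated (IP) libraries. A cluster is a region of piled-up reads, and it was assigned to a gene by its midpoint and strand. Of 100 annotated P450 genes 39 qualified, which with Por made 40 genes among 10845 protein-coding genes with a cluster. The other 61 P450 genes had 0 clusters in every library. The rule for the P450 genes used the presence of a cluster and neither its fold, its p-value, the treatment nor the band. Por was taken by name, with its count of enriched peaks already known.

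The hepatocytes were freshly isolated from the livers of C57BL/6J mice, and the labels name no genetic alteration, age or sex. Glucagon, the pancreatic hormone of fasting, was added to 200 nM for 3 h to cells that had been kept overnight in starvation medium, while control libraries are labelled untreated and the labels do not say whether these cells were starved too. Ultraviolet light (254 nm, 400 mJ/cm2) linked RNA to protein, PGC-1α was pulled down, and the RNA of a lower or an upper band was made into libraries by seCLIP, the single-end variant of eCLIP. What the bands hold is not described in the labels. The 4 groups (control or glucagon, lower or upper band) had 2 libraries each, and it is not stated whether these came from different animals or dishes, so each p-value reflects the spread between libraries, which may be technical.

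Most hepatic P450s sit in the membrane of the endoplasmic reticulum, carry a haem group and insert an oxygen atom into drugs, steroids, bile acids and fatty acids. Por draws electrons from NADPH and hands them to these enzymes, while the mitochondrial P450s such as Cyp27a1 receive theirs through ferredoxin. PGC-1α is a transcriptional coactivator of the fasting liver whose C-terminal part carries RNA-recognition and arginine-serine-rich segments.

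The IP libraries held 26279 to 260814 clusters, of which 25215 to 254104 lay in protein-coding genes, and read depth is unknown. The smallest library, glucagon lower band replicate 1, had 26279 clusters against 97629 in the next smallest. All 6 hepatocyte markers had clusters, 106 to 217 per library in sum, while of 9 markers of other liver cells 8 were at 0 and Stab2 had 1 cluster. Gene levels are given as clusters per 10000 clusters in protein-coding genes. Each cluster has a log2 fold over input and a p-value, both the authors', and a cluster with a log2 fold of at least 3 and a −log10 p of at least 3 was taken as an enriched peak.

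Sequences are shown for coding stretches that carried Por and P450 clusters, since they let the enriched Por RNA be read beside exonic RNA of the same pathway that was not enriched. All are from the GENCODE M21 transcripts on mm10, 5′ to 3′ on the strand of the gene. The 76 nt and 61 nt Por stretches, both on the plus strand, are the coding parts of 2 enriched peaks in glucagon upper band replicate 2, at chr5:135725728-135725803 and chr5:135725967-135726027. Both lie in exon 1 of a short Por transcript of 4 exons (ENSMUST00000127096.1) and in intron 2 of the long transcript. The 42 nt stretch at chr5:135715885-135715926, plus strand, is from exon 2 of the long transcript of 16 exons (ENSMUST00000005651.12), under the cluster with the highest fold in its coding exons. Its capitals mark the start codon, and the other sequences have no capitals.
Por short transcript, exon 1, first peak: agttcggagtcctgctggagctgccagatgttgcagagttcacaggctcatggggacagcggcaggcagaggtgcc
Por short transcript, exon 1, second peak: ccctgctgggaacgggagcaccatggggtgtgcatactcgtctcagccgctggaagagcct
Por long transcript, exon 2: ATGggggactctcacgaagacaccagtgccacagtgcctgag
The P450 stretches are clusters that were overlapped in most libraries in the genes with many clusters. The Cyp2b10 stretch of 135 nt lies at chr7:25911555-25911689, plus strand, in exon 3 of 10, and the Cyp3a11 stretch of 22 nt at chr5:145873432-145873453, minus strand, in exon 4 of 13.
Cyp2b10: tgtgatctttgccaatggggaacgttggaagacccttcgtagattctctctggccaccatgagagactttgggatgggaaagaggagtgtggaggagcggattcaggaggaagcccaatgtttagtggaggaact
Cyp3a11: ttctgtcttcacaaaccggcgg

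Por (ENSMUSG00000005514.14, chromosome 5, 135670033 to 135735326, plus strand) had 548 clusters over the 8 libraries, more than any P450 gene. In control cells the lower band gave 42 and 48 clusters and the upper band 70 and 73. After glucagon the lower band gave 40 and 97 and the upper band 66 and 112. Relative to library size the groups did not overlap, and every glucagon library lay above every control library. The values were 3.25, 2.76, 2.99 and 2.87 per 10000 clusters in the control, in the order lower band replicates 1 and 2, upper band replicates 1 and 2. After glucagon they were 15.9, 5.29, 6.94 and 5.53 in the same order. The highest of these values came from the smallest library.

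The mean of Por was 8.41 ± 5.02 clusters per 10000 after glucagon and 2.97 ± 0.21 in the control (SD, n = 4 each), a difference of 5.44. The exact two-sided permutation p of treatment labels within bands was 0.0556, the smallest that 36 assignments allow, so this design cannot reach 0.05 (adjusted p = 0.194 over 7 permuted comparisons). Without glucagon lower band replicate 1 the mean of the differences within bands was 2.79 and the plain difference of means was 2.95. In that library Alb, the albumin gene, whose clusters are all exonic, also took 25.8 clusters per 10000 against 4.29 to 9.36 in the other 7 libraries. Its part in the Por value was not tested beyond leaving the library out. Of 7559 protein-coding genes with at least 20 clusters, 4.0% had all glucagon libraries above all control libraries, and Por was among these. Without glucagon lower band replicate 1 this share was 7.84%. Leaving out a library can only add genes to this set, so Por could not drop out of it. In bulk libraries of this kind the number of cells, the Por RNA per cell and the PGC-1α bound per Por RNA cannot be told apart.

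**Figure D1:**
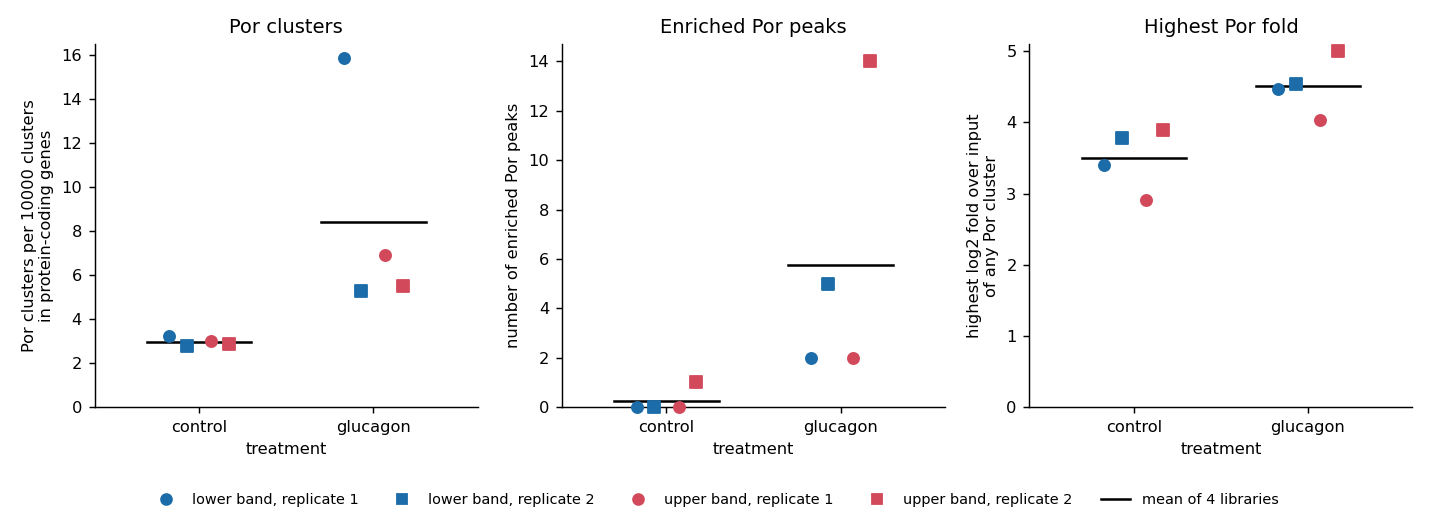
Por in the 8 IP libraries by treatment (x axis), with colour for the band and marker shape for the replicate, and a line at the mean of 4 libraries. The left panel plots clusters per 10000 clusters in protein-coding genes, the middle panel the number of enriched peaks and the right panel the highest log2 fold over input of any Por cluster; control libraries sit at 2.76 to 3.25 in the left panel and glucagon libraries at 5.29 to 15.9.

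Most Por clusters were intronic. Introns held 391 of the 548 clusters (71.4%), the coding sequence 140, the 3′ UTR 11 and the 5′ UTR 6. Intronic clusters numbered 27, 30, 51 and 54 in control cells and 22, 68, 51 and 88 after glucagon, in the order given above. Exonic clusters numbered 15, 18, 19 and 19 in control cells and 18, 29, 15 and 24 after glucagon. When intronic clusters were counted per 10000 intronic clusters of each library, Por was at 2.43 to 3.17 in control cells and at 5.61 to 19.5 after glucagon. For exonic clusters per 10000 exonic clusters the ranges were 3.41 to 3.93 and 4.66 to 12.9. Glucagon libraries were above the control libraries in both counts, and the gap was wider in introns (means 2.75 ± 0.31 and 9.73 ± 6.59, SD, n = 4) than in exons (3.68 ± 0.22 and 6.79 ± 4.10, SD, n = 4). Without glucagon lower band replicate 1, whose values were the highest, the glucagon means were 6.48 in introns and 4.73 in exons, and the gaps to the control fell from 6.97 to 3.73 and from 3.11 to 1.06. Whether the intronic and exonic gaps differ was not tested. The share of all genes without overlap in these counts was not determined.

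Intronic and exonic Por clusters also differed in fold over input. The median log2 fold of intronic clusters was 1.82, 2.27, 1.49 and 1.53 in control cells and 2.47, 1.96, 1.64 and 2.11 after glucagon. The median of exonic clusters was −0.06, −0.50, −0.91 and −0.64 in control cells and 0.33, −0.70, −0.08 and −0.82 after glucagon. Intronic medians were above exonic medians in all 8 libraries, and the glucagon and control values overlapped in both regions. Por exonic clusters recurred more between replicates: 74.2% ± 12.3 of them overlapped a cluster of the other replicate of their group, against 31.2% ± 15.1 of intronic clusters (SD, n = 8 libraries). The order was the same in the P450 genes (72.3% ± 16.5 and 15.3% ± 13.6) and in other protein-coding genes (45.6% ± 14.8 and 26.1% ± 12.5). It is thus not particular to Por.

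Enriched Por peaks were found almost entirely after glucagon, a count already known when Por was chosen and given here as a description. The control libraries had 0, 0, 0 and 1, and the glucagon libraries 2, 5, 2 and 14, which makes 24 peaks. Of these 14 came from glucagon upper band replicate 2 and 10 from all other libraries. Every glucagon library had more enriched Por peaks than any control library. As a share of Por clusters they made up 0%, 0%, 0% and 1.37% in control cells and 5.0%, 5.15%, 3.03% and 12.5% after glucagon. In the remaining protein-coding genes with a cluster the share was 1.96% to 3.07% in control cells and 1.32% to 3.51% after glucagon, so control libraries had a lower share in Por than in other genes. After glucagon the Por share was higher than that of other genes in glucagon lower band replicates 1 and 2 and upper band replicate 2, and slightly lower in upper band replicate 1. The mean difference in the Por share was 6.08 percentage points, and 3.71 without glucagon upper band replicate 2. At a −log10 p of at least 5 in place of 3 it was 3.19 percentage points.

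High folds in Por were less unequal than enriched peaks. Clusters with a log2 fold of at least 3, whatever their p-value, numbered 5, 7, 0 and 4 in control cells and 6, 7, 5 and 14 after glucagon. In the control 1 of 16 such clusters passed the p-value threshold, and after glucagon 23 of 32. The highest log2 fold in each library was 3.40, 3.78, 2.91 and 3.9 in control cells and 4.47, 4.54, 4.03 and 5.0 after glucagon, without overlap. The share of all genes without overlap in the highest fold was not determined, and Por was chosen with its enriched peaks known. The p-value depends on read numbers, which the files do not give, and their part in the difference was not tested.

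All 24 enriched Por peaks lay in introns 1 and 2 of the long transcript. Intron 1, of 26.6 kb, held 245 clusters (44.7%) and 8 enriched peaks, 1 of them in control cells and 7 after glucagon. Intron 2, of 12.6 kb, held 152 clusters (27.7%) and 16 enriched peaks, all after glucagon. The 13 shorter introns downstream together held 1 cluster, in intron 8. Intron 1 had 15, 18, 31 and 34 clusters in control cells and 16, 43, 34 and 54 after glucagon, and intron 2 had 12, 14, 19 and 18 against 8, 28, 17 and 36. Per 10000 clusters intron 1 was at 1.04 to 1.34 in the control and at 2.35 to 6.35 after glucagon. Intron 2 was at 0.71 to 0.93 and at 1.53 to 3.17, so neither intron overlapped between treatments. How often introns of other genes do so was not determined. The region upstream of exon 1, which only alternative starts of Por cover, held 2 clusters.

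**Figure D2:**
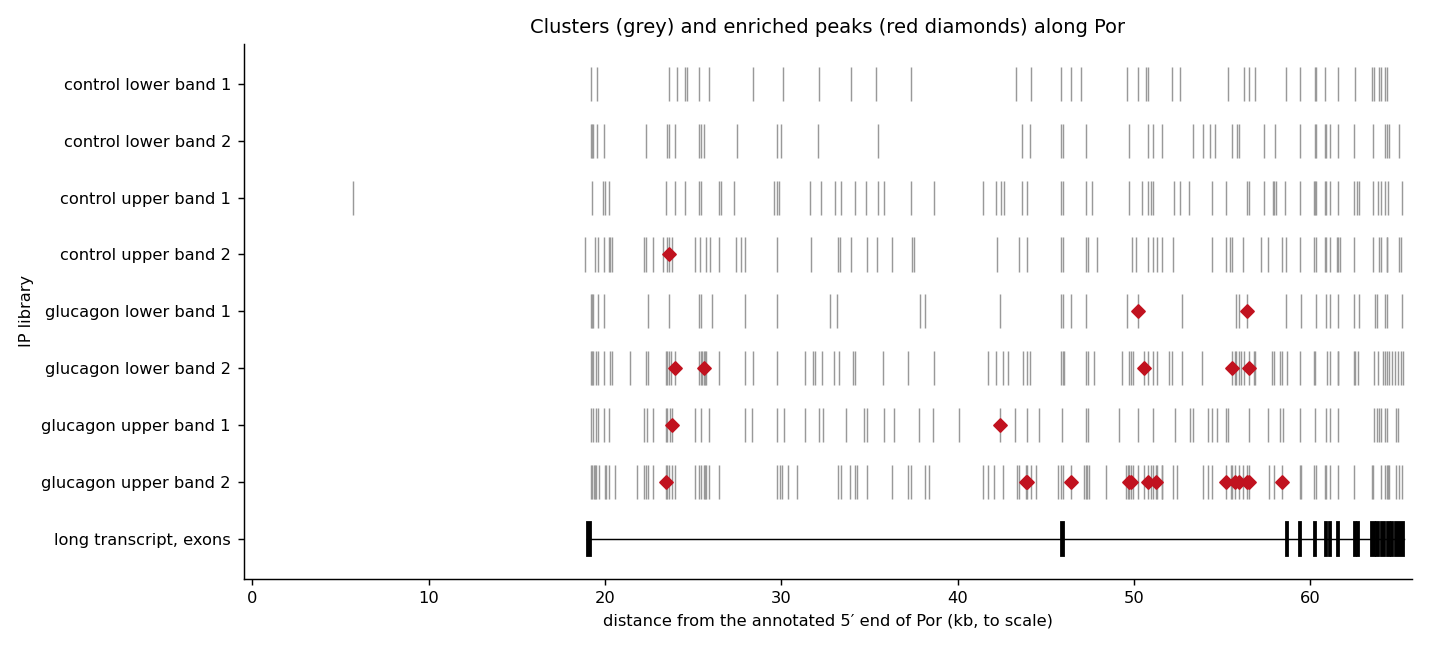
Por clusters along the gene, drawn to scale as distance from its annotated 5′ end in kb (x axis), 1 line per IP library (y axis). Grey ticks are cluster midpoints, red diamonds are the 24 enriched peaks, and black boxes are exons of the long transcript; 8 diamonds lie in the intron before the second box and 16 in the intron after it.

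When enriched Por peaks closer than 1000 nt were joined, they formed 8 sites, of which 3 had peaks in at least 2 libraries. Site 1, in intron 1 at chr5:135693446-135694014, had 4 peaks in 4 libraries: control upper band replicate 2, glucagon lower band replicate 2 and both glucagon upper band libraries. Its highest log2 folds were 3.14, 3.78, 2.37 and 3.9 in control cells and 2.79, 3.16, 3.44 and 5.0 after glucagon. Site 6, in intron 2 at chr5:135719741-135721302, had 6 peaks in 3 glucagon libraries, and its highest folds were 1.82, 3.42, 2.50 and 3.53 in control cells and 4.05, 4.54, 2.54 and 3.78 after glucagon. Site 7, at chr5:135725204-135726595, had 8 peaks in 3 glucagon libraries, with highest folds of 3.14, 3.61, 2.61 and 3.31 in control cells and 4.05, 4.01, 2.96 and 3.63 after glucagon. Every control library had at least 1 cluster at each of these 3 sites, and the folds of the 2 treatments overlapped at all 3. The other 5 sites had enriched peaks in 1 library each.

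The 2 enriched peaks printed above as coding sequence belong to site 7. The short transcript that makes them coding is annotated by GENCODE as coding from its first base, where it has no start codon. In the long transcript the same RNA is intronic. Exon 1 of the short transcript (135725728 to 135726041, 314 nt) held 9 clusters over the 8 libraries. They numbered 0, 2, 0 and 0 in control cells and 2, 3, 0 and 2 after glucagon. The peak over the 76 nt stretch had a log2 fold of 3.33 and a −log10 p of 18.8 in glucagon upper band replicate 2. Overlapping clusters reached 2.14 and 2.89 in glucagon lower band replicates 1 and 2, and no other library had one. In the 61 nt stretch the fold was 3.36 with a −log10 p of 8.23, against 1.61 in control lower band replicate 2 and 2.47 and 1.72 in the glucagon lower band libraries. In the coding exons of the long transcript, which held 131 of the 140 coding clusters, no cluster was enriched. The stretch with the start codon had a cluster in all 8 libraries, with log2 folds of −0.03, −0.63, 1.91 and 1.05 in control cells and 0.14, −0.11, 0.79 and 0.50 after glucagon.

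The authors' list of reproducible peaks for the glucagon upper band held 2 Por peaks among 2167, and the other 3 lists held none in Por. The peak at chr5:135693779-135693833 (55 nt) lies in intron 1, with a log2 fold of 3.11 and a −log10 p of 3.93 in the authors' list. The peak at chr5:135726497-135726567 (71 nt) lies in intron 2, 491 nt from the nearest exon, with 3.20 and 5.43. Over the first of these positions the libraries' own clusters had log2 folds of 3.44 and 2.77 in the glucagon upper band, 2.35 in glucagon lower band replicate 2 and 0.73 in control upper band replicate 2. Over the second they had 2.96 and 3.45 in the glucagon upper band, 3.75 in glucagon lower band replicate 2, 2.14 in control lower band replicate 1 and 2.61 in control upper band replicate 1. Reproducible peaks were present in 10.7% of all protein-coding genes with a cluster, in Por, and in 0 of the 39 P450 genes.

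The bands overlapped in Por. Its mean was 4.59 ± 1.99 clusters per 10000 in the upper band and 6.79 ± 6.15 in the lower band (SD, n = 4 each), a difference of −2.21 with an exact two-sided permutation p of 0.722. Without glucagon lower band replicate 1 the difference was 0.44 and without glucagon lower band replicate 2 it was −4.85.

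The 39 P450 genes together had 2931 clusters and differed from Por in where these lay. Their coding sequence held 1920 clusters and their introns 669, and 8 clusters were enriched. Cluster numbers were uneven: 26 genes had at least 20 clusters, 11 had fewer than 10, and 6 genes held 44.9% of all P450 clusters. In all 8 libraries 17 genes had a cluster, 5 genes had one in a single library, and the median gene had 49.

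**Figure D3:**
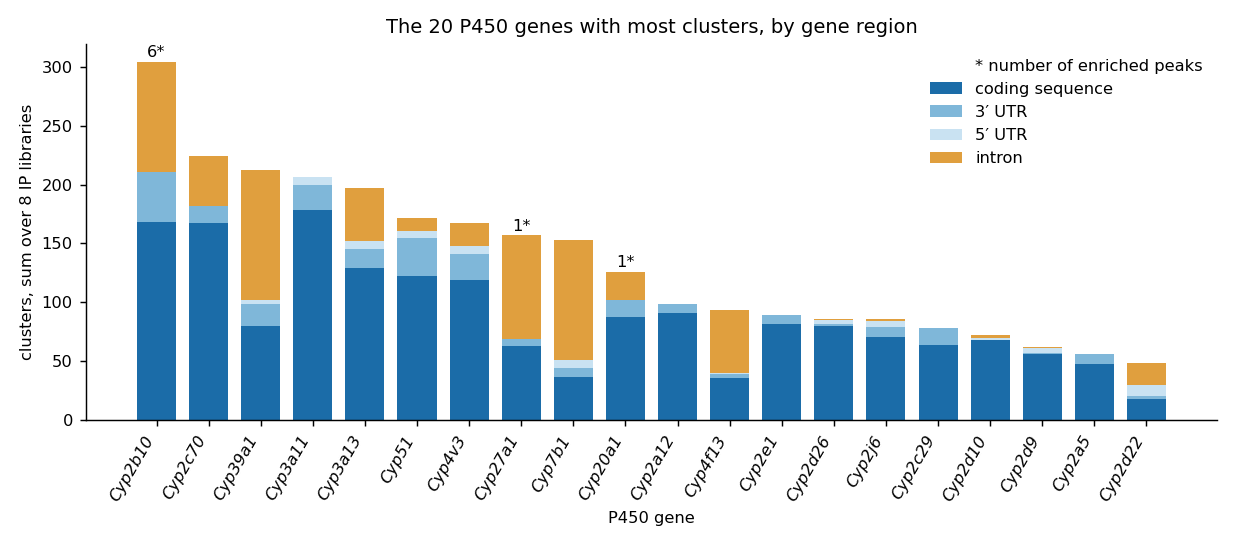
Clusters summed over the 8 IP libraries (y axis) for the 20 P450 genes with most clusters (x axis), with colours for the gene region and a number with an asterisk for enriched peaks. Coding sequence makes up most of the bars of Cyp3a11, Cyp2a12 and Cyp2e1, which have no intronic cluster, while introns make up most of Cyp7b1 (102 of 153) and Cyp27a1 (88 of 157).

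Among the genes of drug and steroid metabolism (Cyp1, Cyp2 and Cyp3 families), 25 of 61 had clusters, 1777 in sum, with 76.6% in coding sequence and 11.8% in introns. Cyp2b10, a drug-metabolizing P450 induced through the nuclear receptor CAR, had the most of all P450 genes, 304, with 168 in coding sequence, 43 in the 3′ UTR and 93 in introns. It had 28, 43, 42 and 60 clusters in control cells and 16, 45, 19 and 51 after glucagon. Relative to library size this was 2.20 ± 0.30 per 10000 in control cells and 3.33 ± 2.02 after glucagon (SD, n = 4 each), and the groups overlapped. Cyp2c70, which makes the muricholic acids of mouse bile, had 224 clusters, with 1.5 to 1.94 per 10000 in control cells and 1.38 to 7.54 after glucagon. Cyp3a11, the main hepatic Cyp3a enzyme of drug oxidation, had 206 clusters, all exonic, with 1.07 to 1.78 in control cells and 1.48 to 5.55 after glucagon. In Cyp2b10, Cyp2c70 and Cyp3a11 alike the top value was that of glucagon lower band replicate 1, and without it the glucagon means were 2.32, 1.58 and 1.83. Cyp3a13, a further Cyp3a gene, had 197 clusters (22.8% intronic), Cyp2a12, a bile acid hydroxylase, 99, and Cyp2e1, which oxidizes ethanol, 89. Cyp1a2, which oxidizes caffeine, had 22 clusters, and Cyp1a1 had 0.

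The coding stretches printed for Cyp2b10 and Cyp3a11 were covered in all 8 libraries. Over the Cyp2b10 stretch the highest log2 folds were −0.27, 0.06, −0.57 and −0.75 in control cells and 0.28, 0.15, −0.39 and −0.15 after glucagon. Over the Cyp3a11 stretch they were −0.61, 0.77, −0.01 and 0.00 in control cells and 1.79, 0.76, −0.86 and 0.03 after glucagon. Treatments overlapped at both, the highest Cyp2b10 fold was 0.28, and the highest Cyp3a11 fold, 1.79, was that of the smallest library, as was the Cyp2b10 one.

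Of the 7 genes grouped as bile acid and sterol genes 4 had clusters, 694 in sum, and 44.8% of these were intronic. Groups were assigned by symbol, so Cyp2c70 and Cyp2a12, which also act on bile acids, were counted with the drug and steroid genes. Cyp39a1, an oxysterol hydroxylase, had 212 clusters (51.9% intronic), with 12, 27, 30 and 52 in control cells and 0, 40, 6 and 45 after glucagon. Cyp7b1, the oxysterol hydroxylase of the alternative bile acid pathway, had 153 clusters (66.7% intronic), with 6, 19, 26 and 37 in control cells and 0, 26, 7 and 32 after glucagon. Both had no cluster in the smallest library, and the treatments overlapped. Cyp51, the lanosterol demethylase of cholesterol synthesis, had 172 clusters of which 6.40% were intronic, and 1.14 ± 0.30 per 10000 in the control against 2.49 ± 1.80 after glucagon (SD, n = 4 each), with overlap. The smallest library held the highest Cyp51 value, 5.16, and without it the glucagon mean was 1.6. Cyp7a1, the rate-limiting enzyme of bile acid synthesis, and Cyp8b1, which directs synthesis to cholic acid, had no cluster in any library.

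Cyp27a1, the mitochondrial sterol hydroxylase of bile acid synthesis, was the only P450 gene with at least 20 clusters whose treatments did not overlap. It had 15, 25, 29 and 36 clusters in control cells and 1, 21, 10 and 20 after glucagon. Per 10000 these were 1.16, 1.44, 1.24 and 1.42 in control cells and 0.40, 1.15, 1.05 and 0.99 after glucagon, so all glucagon libraries lay below all control libraries. The means were 1.31 ± 0.14 and 0.90 ± 0.34 (SD, n = 4 each), and 1.06 after glucagon without the smallest library. Of 26 P450 genes with at least 20 clusters, 1 was below in this sense and 0 were above, against 8.61% below and 4.0% above among all 7559 genes of that size. Without glucagon lower band replicate 1, Cyp27a1 and Cyp4f13 were below (9.14% of all genes) and Cyp2d22 was above (7.84%). Cyp27a1 could not drop out, since leaving out a library can only add genes to these sets. Whether the P450 shares differ from those of all genes was not tested.

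The 6 Cyp4 genes with clusters, of 20 annotated, act on fatty acids and eicosanoids and had 328 clusters, 37.2% of them intronic. Cyp4v3, a fatty acid hydroxylase, had 167 clusters and 1.31 ± 0.23 per 10000 in the control against 1.63 ± 0.66 after glucagon, and Cyp4f13 had 94 with 0.85 ± 0.14 against 0.61 ± 0.15 (SD, n = 4 each). All 42 clusters of Cyp4f17 were intronic. Cyp20a1, a P450 of unknown substrate, had 126 clusters, and 3 genes of vitamin and steroid hormone metabolism, Cyp17a1, Cyp26c1 and Cyp27b1, had 6 in sum.

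P450 clusters lay in coding sequence far more often than those of the other 10805 protein-coding genes. The coding share was 72.3%, 65.5%, 59.9% and 55.5% in control cells and 84.3%, 65.0%, 83.8% and 65.2% after glucagon. In the other genes it was 22.5%, 18.3%, 12.5% and 10.6% in control cells and 38.1%, 22.2%, 20.9% and 14.4% after glucagon. The P450 share was higher in 8 of 8 libraries, with means of 68.9% ± 10.5 and 19.9% ± 8.59 and a difference of 49.0 ± 6.17 percentage points (SD, n = 8 libraries). The exact two-sided sign-flip permutation p was 0.00781, the smallest possible with 8 libraries, and 0.0130 after adjustment over the 5 regions. The test flips libraries and not genes, so it covers only whether the libraries agree for this fixed set of P450 genes. Whether other sets of genes differ as much from the remaining genes was not tested. The same limit holds for the sign-flip tests of introns, UTRs, folds and enriched shares below. The other genes were not matched to the P450 genes for RNA level. Of the hepatocyte markers Alb, Apoa1, Ttr and Serpina1a had 0% intronic clusters, Tat 31.2% and Hnf4a 78.3%. Clusters lying mostly in exons are therefore not particular to P450 genes.

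The deep introns, more than 500 nt from an exon, showed the reverse, with 15.0% ± 8.67 of P450 clusters against 54.7% ± 8.66 in other genes, lower in 8 of 8 libraries (SD, n = 8, exact permutation p = 0.00781, adjusted p = 0.0130). Introns within 500 nt of an exon held 4.07% ± 2.71 against 14.1% ± 2.62, again lower in 8 of 8 (exact permutation p = 0.00781, adjusted p = 0.0130). The median summed intron length was 22427 nt per P450 gene and 21966 nt per other gene. These medians count each gene once, whereas the shares pool clusters over genes. The part of intron length in the shares was not tested. The UTRs differed little: 9.63% ± 1.13 against 8.12% ± 1.58 in 3′ UTRs and 2.33% ± 0.94 against 3.13% ± 1.12 in 5′ UTRs (both exact permutation p = 0.0234, adjusted p = 0.0234, in 7 of 8 libraries). Neither UTR difference held without the 3 P450 genes with most clusters (exact permutation p = 0.148 and 0.898). Introns of P450 genes with clusters were dominated by Cyp39a1, Cyp7b1 and Cyp2b10, which held 45.6% of the 669 intronic clusters, and 18 of the 39 genes had none in an intron.

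**Figure D4:**
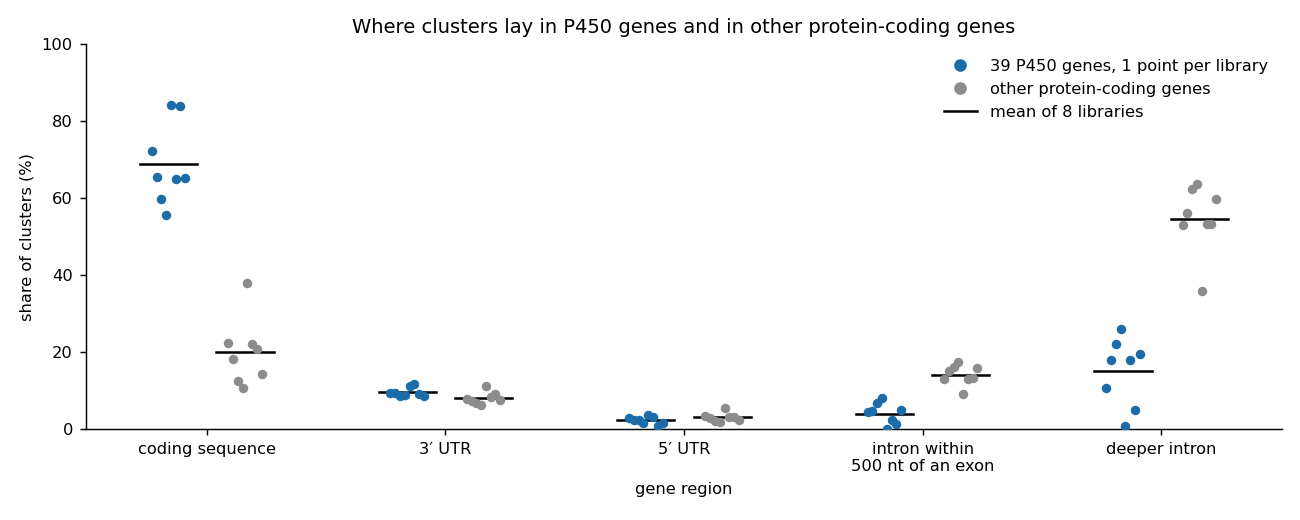
Share of clusters in % (y axis) in 5 gene regions (x axis), with 1 point per IP library for the 39 P450 genes (blue) and the other protein-coding genes (grey) and lines at the means of 8 libraries. Blue points lie above grey ones in coding sequence (means 68.9% and 19.9%) and below them in deeper introns (15.0% and 54.7%).

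Folds over input were low in P450 genes. The median log2 fold of P450 clusters was −0.18, −0.15, −0.41 and −0.43 in control cells and 0.03, −0.34, −0.14 and −0.45 after glucagon, while that of other genes was 0.91 to 1.62. Of P450 clusters 48.1% to 65.0% had a log2 fold below 0, against 12.3% to 22.4% in other genes. On average 14.2% ± 5.25 of P450 clusters lay above the median fold of their own library, against 50.4% ± 4.17 of clusters in other genes, lower in 8 of 8 libraries (SD, n = 8, exact two-sided sign-flip permutation p = 0.00781, adjusted p = 0.0104 over 4 comparisons). Within introns the sets were closer, with medians of 1.07 to 2.47 for P450 clusters and 1.31 to 2.66 for those of other genes. The value of 2.47 is that of the only intronic P450 cluster in glucagon lower band replicate 1. Without this library the ranges were 1.07 to 1.86 and 1.31 to 1.86. Within exons the P450 medians were −0.90 to 0.01 against −0.16 to 0.70 in other genes, below them in all 8 libraries.

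**Figure D5:**
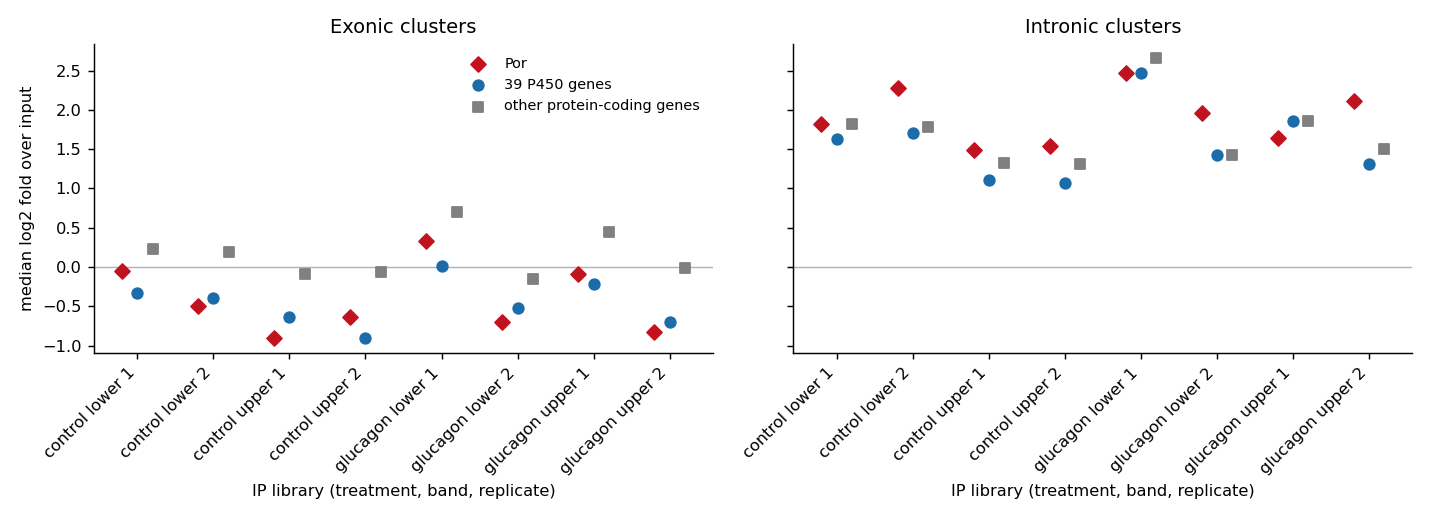
Median log2 fold over input (y axis) of exonic clusters (left) and intronic clusters (right) in each IP library (x axis), for Por (red diamonds), the 39 P450 genes (blue circles) and other protein-coding genes (grey squares). Exonic medians lie between −0.91 and 0.70 and intronic medians above 1 in all 3 sets, and in exons Por and the P450 genes lie below the other genes in every library. The intronic P450 point of glucagon lower band replicate 1 is a single cluster.

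Enriched peaks were rare in P450 genes. Of all protein-coding genes with a cluster 26.4% had at least 1 enriched peak, as did Por and 3 of the 39 P450 genes: Cyp2b10, Cyp20a1 and Cyp27a1. The P450 libraries had 2, 2, 0 and 0 enriched peaks in control cells and 0, 2, 0 and 2 after glucagon. Their share of P450 clusters was 0.263% ± 0.289, against 2.73% ± 0.768 in other genes, lower in 8 of 8 libraries (SD, n = 8, exact sign-flip permutation p = 0.00781, adjusted p = 0.0104 over 4 comparisons). None of the exonic P450 clusters, 107 to 353 per library, was enriched, against 0.573% ± 0.172 in other genes. The exact sign-flip permutation p was 0.00781 (adjusted p = 0.0104). With no enriched cluster in any library this test gives its smallest p for any set of genes, however few its clusters. No conclusion is drawn from it. Among intronic clusters alone the share was 1.36% ± 1.64 against 3.86% ± 1.52, lower in 6 of 8 libraries (exact permutation p = 0.0313, adjusted p = 0.0313), and the exact permutation p was 0.0625 when any of 6 libraries was left out. Of these 6, glucagon lower band replicate 1 had 1 intronic P450 cluster and glucagon upper band replicate 1 had 15, so that under 1 enriched peak each would come at the share of other genes (6.71% and 4.47%). Without both libraries the difference was −1.48 percentage points (exact permutation p = 0.125), and the difference did not hold.

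All 8 enriched P450 peaks were intronic and 6 were in Cyp2b10. Near an exon of Cyp2b10 a peak at chr7:25898028-25898089 in control lower band replicate 2 had a log2 fold of 3.52, and the adjoining peak at chr7:25898090-25898125 in glucagon lower band replicate 2 had 3.60. Deeper in the intron, overlapping peaks at chr7:25901192-25901232 and chr7:25901196-25901258 had 3.99 in control lower band replicate 1 and 4.43 in glucagon lower band replicate 2. Further peaks at chr7:25901669-25901682 and chr7:25902081-25902139 had 3.31 and 3.40 in control lower band replicates 2 and 1. All 6 Cyp2b10 peaks were thus in lower band libraries, and both treatments had them. Clusters over these positions in upper band libraries had log2 folds of 0.48 to 2.78. Cyp20a1 had 1 peak at chr1:60343657-60343747, 245 nt from an exon (3.53), and Cyp27a1 1 at chr1:74726958-74727090, 4895 nt from an exon (3.14), both in glucagon upper band replicate 2. At the Cyp27a1 position control lower band replicate 1 had a cluster with a higher fold, 3.63, that missed the p-value threshold.

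The P450 family as a whole overlapped between treatments. It had 22.9, 22.7, 21 and 21.1 clusters per 10000 in control cells and 42.8, 22.9, 25.3 and 22.0 after glucagon. The difference of 6.37 had an exact two-sided permutation p of 0.111, where 0.0556 is the smallest possible (adjusted p = 0.259 over 7 comparisons), so the test cannot show that the treatments did or did not differ. The exact permutation p was 0.0556 with all clusters as the denominator (difference 6.05), with every same-strand gene counted (6.24) and without glucagon lower band replicate 2. Between libraries of the same band and replicate number the glucagon value was higher in 4 of 4 pairs (exact permutation p = 0.125, the smallest possible with the replicate block). The difference was 1.38 without glucagon lower band replicate 1 and 11.3 without glucagon lower band replicate 2, and −1.55 among only those clusters whose −log10 p reached 3 (exact permutation p = 0.611). By group, the drug and steroid genes were at 13.2 ± 1.29 in control cells and 19.1 ± 9.62 after glucagon (14.4 without the smallest library), the bile acid and sterol genes at 4.94 ± 0.85 and 5.58 ± 0.83, and the Cyp4 genes at 2.68 ± 0.42 and 2.64 ± 0.63 (SD, n = 4 each). Each of these groups, assigned by symbol, overlapped between treatments. Exonic P450 clusters per 10000 exonic clusters were 57.1 to 73.0 in control cells and 53.9 to 76.9 after glucagon, again with overlap.

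The intronic share of P450 clusters was 25.2% ± 8.11 in control cells and 13.0% ± 11.2 after glucagon (SD, n = 4 each). The difference of −12.3 percentage points had an exact permutation p of 0.167 (adjusted p = 0.292) and was −7.46 without glucagon lower band replicate 1 and −7.74 without glucagon upper band replicate 1. Intronic P450 clusters numbered 45, 90, 142 and 182 in control cells and 1, 85, 15 and 109 after glucagon, so the low shares came from these 2 libraries. The share was lower after glucagon in 4 of 4 pairs of the same band and replicate number (exact permutation p = 0.125 with the replicate block, the smallest possible).

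The bands also overlapped in the P450 family. Upper band libraries had 22.4 ± 2.05 P450 clusters per 10000 and lower band libraries 27.8 ± 9.999 (SD, n = 4 each), a difference of −5.48 with an exact permutation p of 0.333. It was −0.50 without glucagon lower band replicate 1 and −10.5 without glucagon lower band replicate 2 (exact permutation p = 0.0556, the smallest possible). The intronic share was 23.4% ± 12.1 in the upper and 14.8% ± 9.78 in the lower band (difference 8.60 percentage points, exact permutation p = 0.278). That difference was 3.77 without glucagon lower band replicate 1, 13.4 without glucagon lower band replicate 2, 13.2 without glucagon upper band replicate 1 and 4.04 without glucagon upper band replicate 2. Between libraries of the same treatment and replicate number, the upper band had fewer P450 clusters per 10000 and a higher intronic share in 4 of 4 pairs. The exact permutation p with the replicate block was 0.125 for each, the smallest possible, and the labels do not say that the numbers pair the libraries. Other protein-coding genes also had more deep-intron clusters in the upper band. In control cells their share was 62.3% and 63.6% in the upper band and 53.1% and 56.2% in the lower. After glucagon it was 53.3% and 59.7% in the upper band and 35.9% and 53.2% in the lower. Of the 26 P450 genes with at least 20 clusters, 0 had all upper band libraries above all lower band libraries, where 1.03% of all genes did. In the other direction 1 did, where 1.06% of all genes did. This was Cyp2a5, the mouse coumarin hydroxylase, named after its values were seen, with 0.34 to 0.42 per 10000 in the upper and 0.46 to 0.79 in the lower band.

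P450 genes resemble each other, so reads can be split between copies. In the longest coding transcript of each gene, a median of 2.70% of all 50 nt windows also occurred in another P450 gene. More than 10% did so in 14 of the 39 genes with clusters, and none did in 15. Por and all introns were not part of this count, so it does not cover intronic clusters. Counts of Cyp2c67 (52.8% of windows shared), Cyp4a12a (48.9%), Cyp2d10 (37.1%), Cyp2a5 (31.0%), Cyp2d9 (27.8%), Cyp2a12 (27.5%) and Cyp3a11 (14.7%) are uncertain for this reason. Cyp2c70, Cyp39a1, Cyp3a13, Cyp51, Cyp4v3, Cyp27a1, Cyp7b1 and Cyp20a1 shared none. Of the 61 genes with no cluster 24 shared more than 10%, and how the authors treated reads that map to several places is not given in the sources used here.

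Partners of the P450 system were taken from a list of 43 genes of haem metabolism, electron transfer, regulation and further drug metabolism. Clusters were found in 40 of them, enriched peaks in 14 and reproducible peaks in 2. Rxra, the shared heterodimer partner of the nuclear receptors that regulate P450 genes, had 761 clusters, 325 enriched peaks and 54 reproducible peaks. Its level was 5.64 ± 0.85 clusters per 10000 in control cells and 7.74 ± 2.76 after glucagon, with overlap. Pgrmc1, a membrane haem protein that binds P450s, had 134 clusters, 11 enriched peaks and 2 reproducible peaks, at 0.93 ± 0.16 and 1.58 ± 0.81. Cyb5a, cytochrome b5, which like Por passes electrons to P450s, had 357 clusters, 84.9% of them intronic, and 5 enriched peaks. Its level was 2.35 ± 0.61 in control cells and 4.48 ± 2.07 after glucagon (SD, n = 4 each for all 3 genes). Pgrmc1 and Cyb5a overlapped between treatments too. Without glucagon lower band replicate 1 the glucagon means of Rxra, Pgrmc1 and Cyb5a were 6.48, 1.18 and 3.46.

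Of 33 partner genes with at least 20 clusters, 5 had all glucagon libraries above all control libraries, where 4.0% of all genes did, and 2 had all below, where 8.61% did. Among those above, Aldh1a1, which oxidizes retinaldehyde, had 373 clusters and went from 2.12 ± 0.47 to 6.44 ± 5.04 per 10000, with a glucagon mean of 3.96 without glucagon lower band replicate 1. The other 4 were named after their values were seen. Alas1, the rate-limiting enzyme of haem synthesis, was at 0.48 ± 0.05 in control cells and 1.17 ± 0.33 after glucagon, and Fdx1, the ferredoxin of mitochondrial P450s, at 0.90 ± 0.19 and 1.81 ± 0.48. Nr1i2, the drug receptor PXR, was at 0.12 ± 0.09 and 0.93 ± 0.50, and Adh1, an alcohol dehydrogenase, at 0.07 ± 0.07 and 1.89 ± 0.88. Below were Hnf4a, a hepatocyte regulator, at 2.18 ± 0.22 and 1.59 ± 0.20, and Nr1h4, the bile acid receptor FXR, also named after its values were seen, at 1.97 ± 0.23 and 0.55 ± 0.52 (SD, n = 4 each for these 7 genes). Ephx1, an epoxide hydrolase with 320 clusters, and Nr5a2, a regulator of bile acid genes with 310, overlapped between treatments.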

How the data were processed

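PGC-1α eCLIP of mouse primary hepatocytes was deposited as cluster lists for 8 IP libraries and reproducible-peak lists for 4 groups. A further 8 libraries are labelled as input and enter only through the deposited folds. The submitters' processing notes name cutadapt, STAR and mm10 without versions. Which peak caller was used, and by what rule peaks became reproducible, is not given in the sources used here. Every cluster in the deposited lists carries a log2 fold of IP over input and a −log10 p-value computed by the authors. The lists have no header, so both units were read from the range of the deposited values, and the −log10 p-value reaches at most 400. No read counts were used, so no interval for counting error could be given.

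Cluster midpoints were placed in GENCODE M21 genes on the same strand, with priority to coding sequence, then 3′ UTR, 5′ UTR and introns of coding transcripts, and introns were divided at 500 nt from an exon. Placement was checked with bedtools 2.31.1 (27129 cluster and gene pairs, 0 differed). Calculations were made in Python 3.11.15 with scipy 1.17.1, pandas 2.3.3 and numpy 2.4.6, and plots with matplotlib 3.10.9. Treatments and bands were compared by exact two-sided permutation within the other factor. P450 genes were compared with other genes by exact two-sided sign flips over 8 libraries, whose units are libraries and not genes. Benjamini-Hochberg adjustment was made over 7, 5 or 4 comparisons. The permuted differences between treatments or bands, also with a library left out, are means of the differences within the other factor. The intronic and exonic Por gaps are plain differences of means. Non-overlap counts used all 7559 genes with at least 20 clusters. The scripts were tested on simulated data.

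The genes, lists and tests were chosen with earlier results of these data known. The text names Por, the 12 P450 genes with most clusters, those with an enriched or reproducible peak, those whose treatments did not overlap, Cyp7a1, Cyp8b1, Cyp27a1, Cyp7b1, Cyp39a1 and Cyp51. Of the partner genes it names those with a reproducible peak and the 6 with most clusters. Any further gene was picked with its values in view. Alternatives were other fold and p-value thresholds, other denominators, gene assignments and region orders, fewer P450 genes, other minimum cluster numbers, a replicate block and leaving out each library. A separate class for exons of noncoding transcripts, non-overlap counts without glucagon lower band replicate 1, and intronic P450 shares without libraries with fewer than 20 such clusters, were added after seeing the data.
Replicate numbers are shared between groups, but the labels do not say that they mark a shared animal or culture. Over 7559 genes the deviations of replicates correlated at 0.141 to 0.496 between groups.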

Additional observations from a re-analysis of the deposited data

Results flagged for a closer look

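Cyp2a12, a bile acid hydroxylase, moved in opposite directions in the bands. In the lower band it had 1.01 and 0.86 clusters per 10000 in control libraries and 0 and 0.71 after glucagon, a difference of −0.581. In the upper band it had 0.68 and 0.63 in control libraries and 0.95 and 0.84 after glucagon, a difference of 0.236. Both glucagon libraries of each band thus lay on one side of its control libraries. The difference between the bands was not tested. Of the 7559 genes with at least 20 clusters, 184 (2.43%) moved in opposite directions in the bands in this sense, and of the 26 P450 genes 1 did, so this pattern is not particular to Cyp2a12. The value of 0 came from the smallest library. In the longest coding transcript of Cyp2a12, 27.5% of the 50 nt windows also occur in another P450 gene, Cyp2a22.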

How the results depend on the processing

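The 7 results from permuting treatments or bands cannot reach 0.05 in this design, so for these only the direction was compared, and 89 of 91 alternatives kept it. For the other 11 results, 109 of 120 alternatives kept the direction and the side of the threshold or, for counts, stayed within 1.5 times. The P450 cluster difference between treatments turned to −1.55 per 10000 among clusters with higher significance (exact permutation p = 0.611). The 5′ UTR difference turned to 0.310 percentage points when introns took priority over exons (exact permutation p = 0.266) and was −0.0811 without the 3 P450 genes with most clusters (exact permutation p = 0.898). The 3′ UTR difference without these genes was 1.03 percentage points (exact permutation p = 0.148). The Por difference between bands ranged from −4.85 to 0.436 per 10000 when each library was left out. The intronic enriched share of P450 genes ranged from −2.93 to −1.90 percentage points against other genes, with an exact permutation p of 0.0625 in 6 of 8 omissions, and was −1.48 without the libraries with fewer than 20 intronic P450 clusters (exact permutation p = 0.125). Without glucagon lower band replicate 1, 593 genes instead of 302 had all glucagon libraries above all control libraries. This count can only stay or rise when a library is left out. The cause of the other changes was not tested. With the replicate block, where 16 assignments allow no p below 0.125, the Por difference between treatments was 5.44 (exact permutation p = 0.125), and no call was possible with or without the block. The coding share of P450 clusters stayed 42.8 to 51.6 percentage points above that of other genes under every alternative run. Read depth is unknown, which limits what low cluster numbers and missed p-value thresholds can show.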
